A study of Mus musculus with 6 samples.

Results

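Apoptotic cell uptake genes were examined in liver non-parenchymal cells of male mice that received acetaminophen at 400 mg/kg into the peritoneum, with RNA taken 6 h later. The genes are 10 of the 53546 in the count tables, matched by exact gene name: the receptor kinases Mertk, Axl and Tyro3, the bridging molecules Gas6 and Mfge8, the integrin subunits Itgav and Itgb5, the engulfment pair Elmo1 and Dock1, and the phosphatidylserine receptor Cd300lb. Counts came from 3 libraries of SRA-/- mice and 3 of wild type mice, which the titles call biological replicates. All 6 mice received acetaminophen, so no value here is a response to the drug. SRA is scavenger receptor A, encoded by Msr1, and the series asks how it bears on hepatic inflammation after acetaminophen. The sources used here name neither the mouse strain and age nor the targeted exon.

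Efferocytosis is the removal of dying cells by phagocytes. A dying cell exposes phosphatidylserine, which is read directly by receptors such as CD300LB or through soluble bridges: GAS6 links it to the TAM receptor kinases TYRO3, AXL and MERTK, and MFGE8 links it to alpha-v integrins. ELMO1 and DOCK1 then form the exchange factor that activates RAC1 and drives engulfment. In liver, Kupffer cells and sinusoidal endothelial cells are the main scavenging populations, and MERTK is known for its part in the resolution of acetaminophen injury.

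Library totals ran from 23757203 to 44003902 counts, and levels are given as CPM, counts scaled to library size and TMM factors, at which 6 counts, or 3 fragments with both mates counted, equal 0.131 to 0.272 CPM. Markers of the labelled fraction were present: 10 of 10 markers each of Kupffer cells, sinusoidal endothelial cells and stellate cells were detected in every library. Hepatocyte markers were too, and 10 of them summed to between 51360 and 99720 CPM in SRA-/- libraries and between 28073 and 83796 CPM in wild type libraries. The sum of 10 pancreatic acinar markers, a list added with values in view, was 2.18, 271 and 2.36 CPM in SRA-/- replicates 1, 2 and 3 and 442, 389 and 755 CPM in wild type replicates 1, 2 and 3, so SRA-/- replicates 1 and 3 stood apart in them. Msr1 gave 1848, 1005 and 925 counts in SRA-/- replicates 1, 2 and 3 and 1123, 1936 and 3838 in wild type replicates 1, 2 and 3. In CPM its fold was 0.51 with a 95% interval of 0.31 to 0.86 (edgeR p 0.0166 before adjustment, 0.9999 after), lower in SRA-/- cells in all 16 other settings as well. Its log2 fold change of -0.96 ± 0.33 (SE) was -0.54 without wild type replicate 3 and -1.27 without wild type replicate 1. Its reads persisted in every SRA-/- library, the groups overlapped in CPM, and which exon was disrupted is not named, so a count over the whole gene is a limited check of the genotype labels. These are bulk samples, in which fewer cells of a type and less RNA per cell cannot be told apart.

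All 10 genes passed the filter on low counts and 0 of them changed between SRA-/- and wild type cells, against 0.0487% of the 20541 tested genes called at an adjusted p under 0.05 by edgeR's quasi-likelihood test with Benjamini-Hochberg adjustment. The adjusted p was 0.9999 for each of the 10. DESeq2 and limma-voom also called 0 of them. Elmo1 alone had an unadjusted edgeR p under 0.05, higher in SRA-/- cells, which is 1 of 10 against 2.32% of all tested genes in that direction, and 0 of 10 had one in the lower direction, against 0.896%. For Elmo1 and Gas6 the lowest SRA-/- value lay above the highest wild type value, 2 of 10 against 3.97% of all tested genes, and 0 of 10 were lower throughout, against 3.33%. Log2 fold changes were above 0 for 6 of the 10 genes, against 48.3% of all tested genes, and their median was 0.09, against -0.01 over all tested genes.

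**Figure D1:**
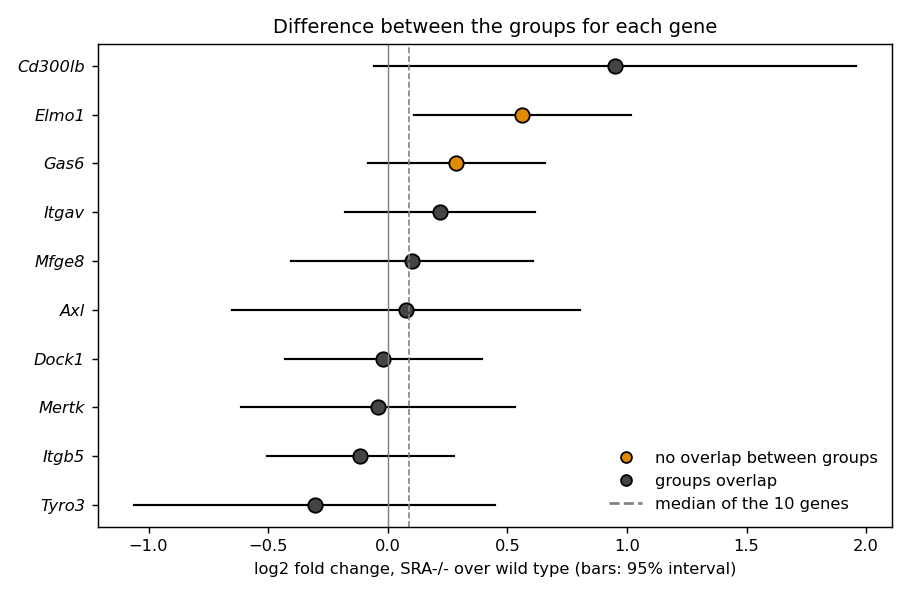
Log2 fold change of each gene, SRA-/- over wild type (horizontal axis), with 95% intervals from edgeR's fit as bars; orange points mark genes whose 3 SRA-/- values all lie above the 3 wild type values. The interval of Elmo1 lies above 0, from 0.11 to 1.02, before adjustment over all genes, and the other 9 intervals include 0.

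Mertk (chromosome 2, 128540876 to 128644814 in mm39), the TAM receptor known as the main efferocytic kinase of tissue macrophages, was the most abundant receptor of the set. It measured 138, 142 and 111 CPM in SRA-/- replicates 1, 2 and 3 and 93.6, 124 and 184 CPM in wild type replicates 1, 2 and 3. The SRA-/- values all lay inside the wild type range, whose lowest and highest libraries were replicates 1 and 3. Means were 130 ± 17.0 CPM in SRA-/- cells and 134 ± 45.9 CPM in wild type cells (SD, n = 3 each), a fold of 0.97 with a 95% interval of 0.65 to 1.45. Its log2 fold change of -0.04 ± 0.26 (SE) turned to 0.26 without wild type replicate 3 and to 0.06 without SRA-/- replicate 3.

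Axl (chromosome 7, 25456698 to 25488130), the TAM receptor tied to GAS6 and to inflamed tissue, spread widely within each group. It measured 84.8, 122.6 and 64.3 CPM in SRA-/- replicates 1, 2 and 3 and 49.0, 102 and 107 CPM in wild type replicates 1, 2 and 3. The highest library was SRA-/- replicate 2 and the lowest wild type replicate 1, and the groups overlapped through their other libraries. The fold was 1.05 with a 95% interval of 0.64 to 1.75, and the log2 fold change of 0.08 ± 0.32 (SE) turned to -0.20 without SRA-/- replicate 2 and to -0.19 without wild type replicate 1. Without both it was -0.48, with an unadjusted edgeR p of 0.0344 and an adjusted p of 0.586. That setting was chosen after seeing the data and drops the highest SRA-/- and the lowest wild type library, which by itself lowers the fold change. The summed level of 10 Kupffer cell markers, led in CPM by Clec4f, was 1067, 1654 and 933 CPM in SRA-/- replicates 1, 2 and 3 and 619.8, 1605 and 1483 CPM in wild type replicates 1, 2 and 3. Its highest and lowest libraries were those of Axl, and so were those of the sum of 7 lymphocyte markers given below. The Kupffer cell markers did not share 1 highest library. Clec4f was highest in wild type replicate 3, at 369 CPM against 358 CPM in SRA-/- replicate 2. Marco, from 15.7 CPM in wild type replicate 1 to 184 CPM in SRA-/- replicate 2, measured 122 CPM in wild type replicate 2. The part of either cell type in the Axl values was not tested.

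Tyro3 (chromosome 2, 119628214 to 119648585), the TAM receptor best known from the nervous system, was near the limit of these libraries. It had 58, 32 and 27 counts in SRA-/- replicates 1, 2 and 3 and 31, 45 and 55 counts in wild type replicates 1, 2 and 3, or 1.19 ± 0.10 CPM in SRA-/- cells and 1.47 ± 0.35 CPM in wild type cells (SD, n = 3 each). The groups overlapped, and the 95% interval of its fold was 0.48 to 1.37.

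Shares within a library do not depend on the scaling between libraries. Of the length-scaled signal of the TAM receptors, Mertk took 62.9% ± 4.95 in SRA-/- libraries and 64.4% ± 5.40 in wild type libraries (SD, n = 3 each; exact two-sided permutation p = 0.5). Axl took 36.7% ± 5.05 in SRA-/- and 35.1% ± 5.37 in wild type libraries (exact two-sided permutation p = 0.6), and Tyro3 took 0.41% ± 0.11 in SRA-/- and 0.51% ± 0.08 in wild type libraries (exact two-sided permutation p = 0.3). In 3 against 3 libraries this test cannot give a p below 0.1, and over the 7 shares compared here the lowest adjusted p was 0.7. Mertk thus exceeded Axl in every library, from 57.2% in SRA-/- replicate 2 to 68.5% in wild type replicate 1. The small differences in the Mertk and Axl shares changed sign without SRA-/- replicate 2 (to 1.30 and -1.26 percentage points) and without wild type replicate 1 (to 0.53 and -0.46).

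**Figure D2:**
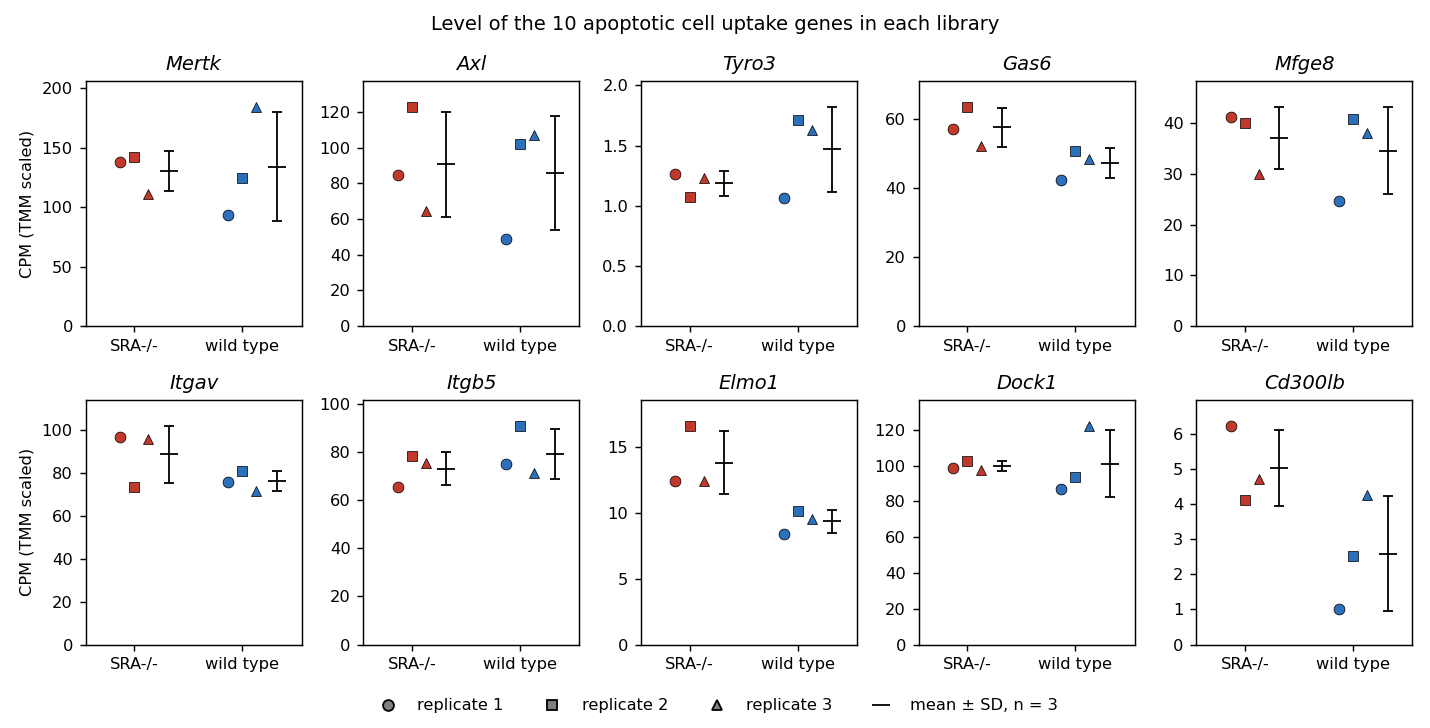
CPM of each of the 10 genes (vertical axes, each from 0) in the 3 SRA-/- libraries (red) and the 3 wild type libraries (blue), with symbols for replicate numbers and bars for mean ± SD. Gas6 and Elmo1 show no overlap between the groups, and wild type replicate 1 is the lowest point for 8 of the 10 genes.

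Gas6, the vitamin K-dependent ligand of the TAM receptors (chromosome 8, 13515374 to 13544490), lies 26.5 Mb from Msr1 on the same chromosome. It measured 57.1, 63.3 and 52.0 CPM in SRA-/- replicates 1, 2 and 3 and 42.3, 50.6 and 48.4 CPM in wild type replicates 1, 2 and 3. Every SRA-/- value lay above every wild type value, and the gap between SRA-/- replicate 3 and wild type replicate 2 was small beside the spread within each group. Means were 57.5 ± 5.63 CPM in SRA-/- cells and 47.1 ± 4.30 CPM in wild type cells (SD, n = 3 each). The fold was 1.22 with a 95% interval of 0.94 to 1.58, a log2 fold change of 0.29 ± 0.16 (SE; edgeR unadjusted p 0.114). Its sign was the same in all 16 other settings tried, with log2 fold changes from 0.15 to 0.35. The lowest was without wild type replicate 1 and SRA-/- replicate 2 together, a setting chosen after seeing the data. An exon of Tmem255b on the opposite strand shares 34 bases with Gas6, 1.33% of its exon length.

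Pros1, protein S, the other TAM ligand and an anticoagulant, measured 100.3 ± 2.76 CPM in SRA-/- cells and 111 ± 34.3 CPM in wild type cells (SD, n = 3 each), with a log2 fold change of -0.15 ± 0.23 (SE). Per length, Gas6 made up 48.4%, 50.4% and 44.7% of the ligand pair in SRA-/- replicates 1, 2 and 3 and 45.6%, 43.8% and 34.3% in wild type replicates 1, 2 and 3. The groups overlapped in this share at SRA-/- replicate 3 and wild type replicate 1 (exact two-sided permutation p = 0.2). The difference of 6.58 percentage points was 3.13 without wild type replicate 3, the library with the lowest share.

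Mfge8 (chromosome 7, 78783516 to 78798808), the secreted bridge from phosphatidylserine to alpha-v integrins, measured 41.2, 40.0 and 30.1 CPM in SRA-/- replicates 1, 2 and 3. In wild type replicates 1, 2 and 3 it measured 24.8, 40.8 and 38.1 CPM. The groups overlapped, with replicate 3 low among SRA-/- libraries and replicate 1 low among wild type libraries. The fold was 1.07 with a 95% interval of 0.76 to 1.52, and the log2 fold change of 0.10 ± 0.23 (SE) turned to -0.08 without wild type replicate 1. Edil3, a secreted relative of Mfge8, was scarce, with 32, 10 and 6 counts in SRA-/- replicates 1, 2 and 3 and 23, 22 and 35 in wild type replicates 1, 2 and 3. Its mean of 0.43 ± 0.23 CPM in SRA-/- cells lay below 0.89 ± 0.13 CPM in wild type cells (SD, n = 3 each), without overlap (edgeR adjusted p 0.9999).

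Itgav (chromosome 2, 83554741 to 83637260), the alpha-v subunit that pairs with several beta subunits to bind MFGE8 and other ligands, measured 96.8, 73.3 and 95.8 CPM in SRA-/- replicates 1, 2 and 3. Wild type replicates 1, 2 and 3 had 75.5, 80.9 and 71.7 CPM. SRA-/- replicates 1 and 3 lay above all wild type libraries, and SRA-/- replicate 2 lay among them. The fold was 1.17 with a 95% interval of 0.88 to 1.54, a log2 fold change of 0.22 ± 0.18 (SE). The predicted gene Gm13684 on the opposite strand shares 634 bases, or 5.90%, of its exon length.

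Itgb5 (chromosome 16, 33650035 to 33769708), which forms the alpha-v beta 5 receptor for MFGE8, measured 65.3, 78.3 and 75.5 CPM in SRA-/- replicates 1, 2 and 3 and 75.1, 90.9 and 71.3 CPM in wild type replicates 1, 2 and 3. The groups overlapped and the fold was 0.92, with a 95% interval of 0.70 to 1.21. Among the beta subunits that pair with alpha-v, Itgb1 was the most abundant per length at 78.3 CPM per kb over the 6 libraries, followed by Itgb5 at 21.4 and Itgb3 at 18.6, while Itgb8 and Itgb6 averaged 0.16 and 0.11 CPM per kb. These RNA levels do not show how much of each beta subunit was paired with alpha-v. None of the 5 had an unadjusted edgeR p under 0.05. Itgb5 made up 49.7%, 60.6% and 55.8% of the Itgb5 and Itgb3 signal per length in SRA-/- replicates 1, 2 and 3 and 64.7%, 55.3% and 40.6% in wild type replicates 1, 2 and 3, so that the wild type libraries alone spanned the whole range (exact two-sided permutation p = 0.8). The difference of 1.82 percentage points turned to -0.78 without SRA-/- replicate 2 and to -4.66 without wild type replicate 3.

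Elmo1 (chromosome 13, 20274766 to 20792523), the adaptor that joins DOCK1 to upstream receptors, had the smallest p of the set. It measured 12.4, 16.6 and 12.4 CPM in SRA-/- replicates 1, 2 and 3 and 8.38, 10.1 and 9.48 CPM in wild type replicates 1, 2 and 3. All SRA-/- libraries lay above all wild type libraries, with SRA-/- replicate 2 furthest above. Means were 13.8 ± 2.41 CPM in SRA-/- cells and 9.33 ± 0.89 CPM in wild type cells (SD, n = 3 each). The log2 fold change was 0.56 ± 0.20 (SE), a fold of 1.48 with a 95% interval of 1.08 to 2.02, and edgeR's p was 0.0202 before adjustment and 0.9999 after it. Leaving out SRA-/- replicate 2 gave 0.41 on the log2 scale (unadjusted edgeR p 0.0839). Leaving out wild type replicate 1 as well, a setting chosen after seeing the data, gave 0.34 (unadjusted edgeR p 0.129). The sign was the same in all 16 other settings. The opposite-strand gene Gm32036 shares 403 bases, or 3.20%, of Elmo1's exon length, and reads were counted without strand.

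The other ELMO genes showed no such gap. Elmo2 measured 31.0 ± 4.96 CPM in SRA-/- cells and 29.3 ± 0.99 CPM in wild type cells, and Elmo3 measured 24.8 ± 3.92 CPM in SRA-/- cells and 22.5 ± 5.82 CPM in wild type cells (SD, n = 3 each), with overlapping groups for both. Elmo1 was the smallest of the trio per exon length, at 8.78%, 8.70% and 8.02% of their summed signal in SRA-/- replicates 1, 2 and 3 and 4.999%, 7.31% and 7.21% in wild type replicates 1, 2 and 3. This share, chosen after the values were seen, did not overlap between the groups and gave an exact two-sided permutation p of 0.1, the smallest possible. The sum of 7 lymphocyte markers was 17.8, 23.5 and 19.0 CPM in SRA-/- replicates 1, 2 and 3 and 12.5, 13.2 and 18.5 CPM in wild type replicates 1, 2 and 3. Its highest and lowest libraries were those of Elmo1, and so were those of the Kupffer cell marker sum given above, whose single markers differed in their highest library. The part of either cell type in the Elmo1 values was not tested.

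Dock1 (chromosome 7, 134272383 to 134775368), the exchange factor that ELMO1 binds, varied little among SRA-/- libraries. It measured 98.7, 103 and 97.5 CPM in SRA-/- replicates 1, 2 and 3 and 87.1, 93.5 and 122 CPM in wild type replicates 1, 2 and 3. Its SRA-/- values lay between the second and the third of the wild type values. Means were 99.6 ± 2.71 CPM in SRA-/- cells and 101 ± 18.7 CPM in wild type cells (SD, n = 3 each), a fold of 0.99 with a 95% interval of 0.74 to 1.31. The log2 fold change of -0.02 ± 0.18 (SE) turned to 0.14 without wild type replicate 3. Of 11 Dock genes, 5 had log2 fold changes above 0, against 48.3% of all tested genes, and 0 had an unadjusted edgeR p under 0.05. Dock2, the leukocyte member, measured 37.7 ± 9.28 CPM in SRA-/- cells and 29.5 ± 6.60 CPM in wild type cells (SD, n = 3 each), with overlapping groups. Dock1 took 58.1% ± 3.16 of the length-scaled sum of Dock1, Dock2 and Dock5 in SRA-/- libraries and 61.1% ± 5.59 in wild type libraries (SD, n = 3 each; exact two-sided permutation p = 0.6).

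Cd300lb (chromosome 11, 114813607 to 114825212), an activating receptor of myeloid cells that binds phosphatidylserine, had the largest fold and the widest interval of the set. It gave 286, 123 and 104 counts in SRA-/- replicates 1, 2 and 3 and 29, 66 and 144 counts in wild type replicates 1, 2 and 3, which is 6.22, 4.11 and 4.72 CPM in SRA-/- libraries and 0.997, 2.51 and 4.26 CPM in wild type libraries. Wild type replicate 3 lay above SRA-/- replicate 2, so the groups overlapped. Means were 5.02 ± 1.09 CPM in SRA-/- cells and 2.59 ± 1.64 CPM in wild type cells (SD, n = 3 each). The fold was 1.93 with a 95% interval of 0.96 to 3.89, and the log2 fold change was 0.95 ± 0.45 (SE; edgeR p 0.0616 before adjustment, 0.9999 after). This value was 0.58 without wild type replicate 1 (unadjusted edgeR p 0.0997) and 1.53 without wild type replicate 3 (unadjusted edgeR p 0.00443). The unadjusted p was 0.0364 by DESeq2, 0.00300 by limma-voom and 0.0318 by edgeR without a filter on low counts. Over the 16 other settings the lowest adjusted p was 0.157, by limma-voom.

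Neutrophil markers stood high in some of the same libraries. The sum of 8 such markers was 124, 38.8 and 161 CPM in SRA-/- replicates 1, 2 and 3 and 13.5, 29.0 and 36.6 CPM in wild type replicates 1, 2 and 3. Of these markers 6 were detected in every library, and Ly6g had 0 to 15 counts and Camp 0 to 5. Of the 6 that were tested, 6 had unadjusted edgeR p-values under 0.05, higher in SRA-/- cells, against 2.32% of all tested genes. After adjustment 0 of them changed, against 0.0487% of all tested genes, with a lowest adjusted edgeR p of 0.521. For 3 of the 6 the groups did not overlap, higher in SRA-/- cells, against 3.97% of all tested genes. Wild type replicate 1 was the lowest library in this sum as in Cd300lb, and the part of neutrophil RNA in the Cd300lb values was not tested.

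The Cd300 cluster holds 12 genes in the files, of which 7 were tested. Of these, 6 had a log2 fold change above 0, against 48.3% of all tested genes, and 0 had an unadjusted edgeR p under 0.05. The inhibitory phosphatidylserine receptor gene Cd300a measured 19.5 ± 1.04 CPM in SRA-/- cells and 14.9 ± 5.46 CPM in wild type cells, and Cd300lf, whose product also binds phosphatidylserine, measured 47.4 ± 13.2 CPM in SRA-/- cells and 33.8 ± 15.3 CPM in wild type cells (SD, n = 3 each). Both overlapped between the groups, with folds of 1.31 (95% interval 0.85 to 2.00) and 1.40 (95% interval 0.82 to 2.41). Per length, Cd300lb averaged 1.30 CPM per kb, below Cd300a at 3.62, Cd300lf at 7.88 and the endothelial Cd300lg at 48.7 CPM per kb. Tyrobp, the adaptor DAP12 that relays signals of activating receptors of this kind, measured 38.1 ± 4.43 CPM in SRA-/- cells and 26.5 ± 10.7 CPM in wild type cells (SD, n = 3 each), with overlapping groups and a fold of 1.44 (95% interval 0.92 to 2.25).

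Levels between genes were compared per kb of annotated exon, a length that includes every annotated transcript and so understates genes with long rare exons. Over the 6 libraries Mertk averaged 30.5 ± 7.16 CPM per kb (SD, n = 6), above 95.01% of tested genes, and it exceeded the next gene, Itgb5, in 6 of 6 libraries although their ranges overlapped. Itgb5 at 21.4 ± 2.40, Gas6 at 20.5 ± 2.84 and Axl at 17.5 ± 5.50 CPM per kb followed. The order of Itgb5 and Gas6 held in 4 of 6 libraries, as did that of Gas6 and Axl, so these neighbours do not differ beyond their spread. Dock1 came next at 10.8 ± 1.28 CPM per kb, below Axl in 6 of 6 libraries and above the ranges of Itgav and Mfge8, which were level at 7.66 ± 1.05 and 7.63 ± 1.45 CPM per kb. A wide gap separated these 7 genes from Cd300lb at 1.30 ± 0.62, Elmo1 at 0.92 ± 0.23 and Tyro3 at 0.21 ± 0.04 CPM per kb. Cd300lb exceeded Elmo1 in 5 of 6 libraries, and Tyro3 lay below the range of every other gene and above 7.81% of tested genes.

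**Figure D3:**
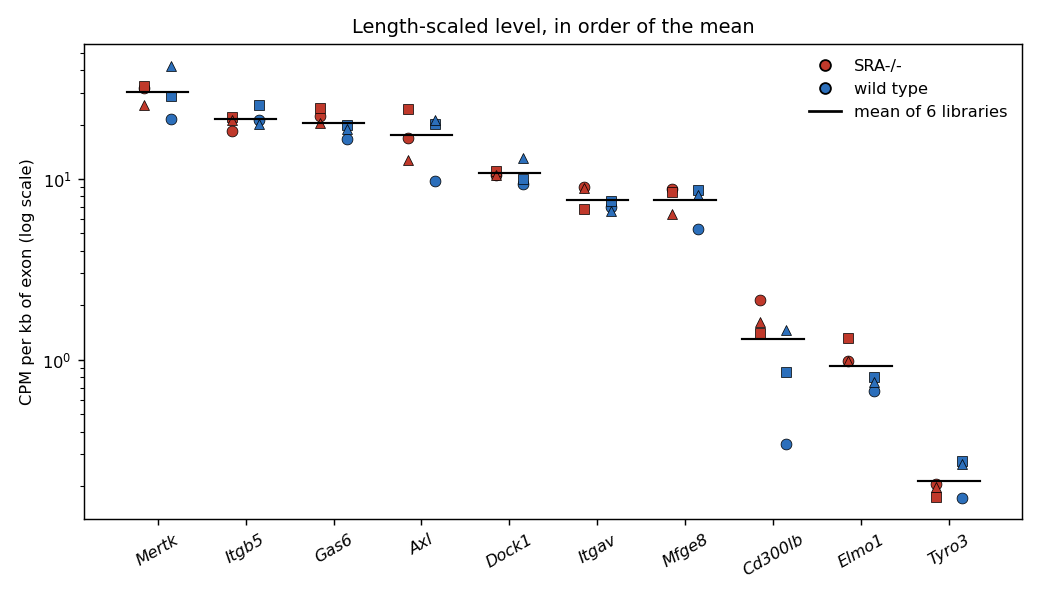
CPM per kb of exon (vertical axis, log scale) for the 10 genes in order of their mean over 6 libraries (black line), with SRA-/- libraries in red and wild type libraries in blue. From Mertk at 30.5 to Mfge8 at 7.63 the genes form a run of neighbouring levels, and Cd300lb, Elmo1 and Tyro3 lie below it.

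Libraries differed more than groups for most of the genes. Wild type replicate 1 was the lowest library for 8 of the 10 and lay below the 6-library mean for all 10, with a median deviation of -0.36 on the log2 scale. Wild type replicate 3 had the highest median deviation, 0.20, and wild type replicate 2 had -0.02. The SRA-/- libraries lay between these, at 0.11, 0.16 and -0.02 in replicates 1, 2 and 3. The median deviation of all tested genes was 0.01 to 0.02 in each library. Across libraries, the ratio of highest to lowest level ran from 1.35 for Itgav to 2.50 for Axl, and was 6.25 for Cd300lb. The 10 hepatocyte markers summed to 55429, 51360 and 99720 CPM in SRA-/- replicates 1, 2 and 3 and 83796, 59581 and 28073 CPM in wild type replicates 1, 2 and 3. Wild type replicate 3, highest by this median deviation though the highest library for 2 of the 10 genes, was lowest in hepatocyte markers, and the high hepatocyte sums of SRA-/- replicate 3 and wild type replicate 1 stood beside the lowest median deviation within their own groups. The part of hepatocyte RNA in these values was not tested.

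**Figure D4:**
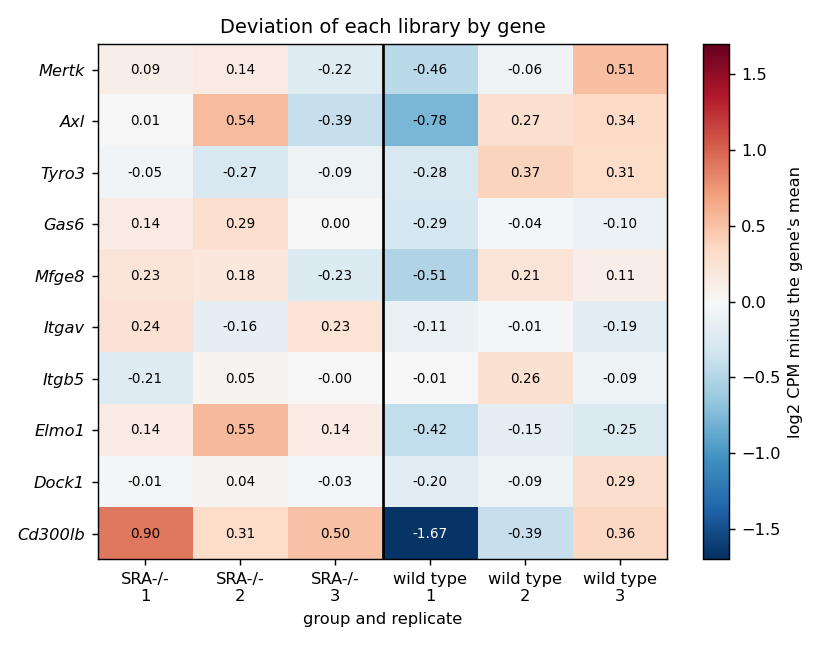
Deviation of log2 CPM from each gene's mean over 6 libraries, by gene (rows) and library (columns, SRA-/- left of the line). The column of wild type replicate 1 is below 0 for all 10 genes, down to -1.67 for Cd300lb.

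Around these genes, 5 lists of 68 genes covered other uptake receptors, bridging molecules, engulfment machinery, find-me and do-not-eat-me signals, and regulators. Of the 66 tested, 0 changed by edgeR's test, 5 had an unadjusted p under 0.05 and were higher in SRA-/- cells, and 1 had one and was lower. Log2 fold changes exceeded 0 for 38 genes, and the median over the lists was 0.06. Among all tested genes, 0.0487% changed, 48.3% had log2 fold changes above 0, and 2.32% and 0.896% had such a p in the higher and lower directions. Nothing is drawn from these counts for the lists as a whole, and the 6 genes are given 1 by 1.

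Among 14 tested uptake receptors the integrin genes of leukocytes led. Itgax, which encodes CD11c of dendritic cells and some macrophages, gave 329, 182 and 127 counts in SRA-/- replicates 1, 2 and 3 and 82, 60 and 100 in wild type replicates 1, 2 and 3, or 6.34 ± 0.73 CPM in SRA-/- cells and 2.69 ± 0.36 CPM in wild type cells (SD, n = 3 each). The groups did not overlap. The fold was 2.36 with a 95% interval of 1.62 to 3.43, or 1.24 ± 0.24 (SE) on the log2 scale. Its adjusted p was 0.438 in edgeR, 0.00249 in DESeq2 and 0.0138 in limma-voom, so the call depended on the tool. Itgb2, the shared beta subunit of the leukocyte integrins, measured 50.6 ± 5.16 CPM in SRA-/- cells and 32.5 ± 8.50 CPM in wild type cells (SD, n = 3 each), without overlap (edgeR p 0.0157 before adjustment, 0.9999 after). The sums of 8 dendritic cell markers ran from 38.0 to 48.5 CPM in SRA-/- libraries and from 41.7 to 49.0 CPM in wild type libraries. These markers went opposite ways, with 4 of the 8 above 0 in log2 fold change. Zbtb46, the most abundant, averaged 19.3 CPM in SRA-/- and 24.4 CPM in wild type cells, and Ccr7 4.90 and 2.51 CPM. Those 2 did not overlap between the groups, 1 lower and 1 higher, against 3.33% and 3.97% of all tested genes. Sums of neutrophil markers are given above. The part of either cell type in the integrin values was not tested.

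Cd36, a scavenger receptor that also binds oxidized lipids on dying cells, went the other way. It measured 85.6 ± 6.85 CPM in SRA-/- cells and 125 ± 37.9 CPM in wild type cells (SD, n = 3 each), a fold of 0.69 with a 95% interval of 0.48 to 0.99, with overlapping groups (edgeR p 0.0430 before adjustment, 0.9999 after). On the log2 scale its -0.54 ± 0.23 (SE) was -0.30 without wild type replicate 3 (unadjusted edgeR p 0.174), and leaving out any 1 library but wild type replicate 1 took the unadjusted p above 0.05. Of 10 sinusoidal endothelial markers, 0 had a log2 fold change above 0, against 48.3% of all tested genes, and their median was -0.22. Stellate cell markers had 2 of 10 above 0 and Kupffer cell markers 4 of 10. Only 1 of the 10 endothelial markers had an unadjusted edgeR p under 0.05, in the lower direction, against 0.896% of all tested genes. The endothelial markers summed to 2560, 2456 and 2122 CPM in SRA-/- replicates 1, 2 and 3 and 2035, 2842 and 3782 CPM in wild type replicates 1, 2 and 3. Their part in the Cd36 values was not tested. Lrp1, the most abundant uptake receptor, which binds calreticulin on dying cells, measured 2487 ± 201 CPM in SRA-/- cells and 2447 ± 587 CPM in wild type cells (SD, n = 3 each). Its fold was 1.02 with a 95% interval of 0.64 to 1.61. The lowest library, wild type replicate 3, was also lowest in the hepatocyte marker sum, though the highest libraries differed. The part of hepatocyte RNA in the Lrp1 values was not tested. Adgrb1 and Havcr1, both phosphatidylserine receptors, gave 0 to 9 and 0 to 7 counts per library and did not pass the filter.

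Among bridging molecules, Anxa1, annexin A1, which is carried by neutrophils and binds phosphatidylserine, measured 8.68 ± 2.23 CPM in SRA-/- cells and 4.86 ± 1.28 CPM in wild type cells (SD, n = 3 each). Its groups did not overlap, and the log2 fold change of 0.83 ± 0.28 (SE) had an edgeR p of 0.0153 before adjustment and 0.9999 after. It was 0.62 without SRA-/- replicate 3 (unadjusted edgeR p 0.0727) and 0.87 without SRA-/- replicate 1 (unadjusted edgeR p 0.0316), the libraries with the higher neutrophil marker sums. Without SRA-/- replicate 2, the SRA-/- library with the lowest such sum, it was 0.99 (unadjusted edgeR p 0.0105). Among SRA-/- libraries Anxa1 itself was highest in replicate 3, at 11.1 CPM, and lowest in replicate 2, at 6.75 CPM. Leaving out replicate 3 therefore lowers the fold change by itself, and leaving out replicate 2 raises it, so these settings say nothing about neutrophils. The part of neutrophil RNA in the Anxa1 values was not tested. Calr, the eat-me signal calreticulin and the most abundant of this list, had the same mean in both groups, 451 ± 119 CPM in SRA-/- cells and 451 ± 9.35 CPM in wild type cells (SD, n = 3 each). In the engulfment list of 17 genes, 11 had log2 fold changes above 0, against 48.3% of all tested genes, and 0 had an unadjusted edgeR p under 0.05. Rac2, the leukocyte RAC, had 0.54 ± 0.26 (SE) and Vav1, a RAC exchange factor of blood cells, 0.43 ± 0.28 on the log2 scale, whereas the widely expressed Trio was level at 169 ± 4.92 CPM in SRA-/- cells and 165 ± 5.23 CPM in wild type cells (SD, n = 3 each).

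In the list of find-me and do-not-eat-me signals, 6 of 12 genes had log2 fold changes above 0. Cd24a, whose product is a do-not-eat-me signal through Siglec receptors, measured 8.62 ± 1.44 CPM in SRA-/- cells and 4.64 ± 0.92 CPM in wild type cells (SD, n = 3 each), without overlap, and its adjusted p was 0.803 in edgeR, 0.151 in DESeq2 and 0.0440 in limma-voom, so that 1 of the 3 tools called it. Gpr132, a receptor by which phagocytes sense lipids of dying cells, measured 8.66 ± 1.63 CPM in SRA-/- cells and 4.66 ± 1.10 CPM in wild type cells (SD, n = 3 each), without overlap (edgeR adjusted p 0.931). P2ry2, which senses released nucleotides, had a log2 fold change of 0.40 ± 0.19 (SE) with overlapping groups. Cd47, the do-not-eat-me ligand of SIRPA, was the most abundant of the list and measured 194 ± 8.44 CPM in SRA-/- cells and 214 ± 45.2 CPM in wild type cells (SD, n = 3 each).

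Of 13 regulators, 6 had log2 fold changes above 0 and 0 had an unadjusted edgeR p under 0.05. Adam17, the protease that sheds MERTK, measured 43.8 ± 3.47 CPM in SRA-/- cells and 37.9 ± 3.89 CPM in wild type cells (SD, n = 3 each), with overlapping groups. Pparg, a nuclear receptor that phagocytes use after engulfment, had a log2 fold change of -0.49 ± 0.30 (SE). Abca1, the cholesterol exporter that phagocytes raise after engulfment, was the most abundant of the list in CPM, though not per kb of exon. It measured 1013 ± 287 CPM in SRA-/- cells and 867 ± 124 CPM in wild type cells (SD, n = 3 each), also with overlap.

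**Figure D5:**
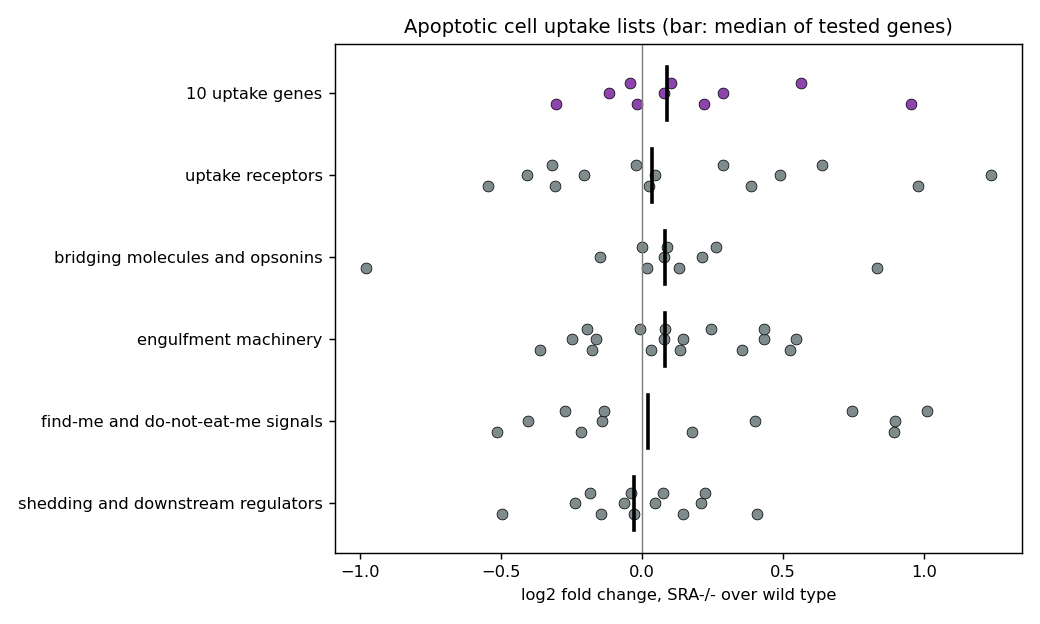
Log2 fold change, SRA-/- over wild type (horizontal axis), of each tested gene in the set of 10 uptake genes (purple) and in the 5 surrounding lists (grey), with black bars at the medians. Medians run from -0.03 for the regulators to 0.09 for the 10 uptake genes, and single genes from -0.98 for Edil3 to 1.24 for Itgax.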

How the data were processed

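Titles gave groups and replicate numbers. The submitters' processing notes name FastQC, STAR, featureCounts and build mm39. Per the file headers, featureCounts 2.0.2 summed exon reads for each gene name in GENCODE vM26, using no strand option and not joining mates. The authors deposited unscaled counts, 1 table a library. Of counts from 1 to 4, 68.5% to 71.9% were even, so a fragment mostly counts as a pair. Reads that overlap several genes or align to several places were left out, which lowers near-identical copies and genes with shared exons.

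In R 4.3.3, 20541 of 53546 genes passed filterByExpr of edgeR 4.0.16. TMM scaling and a quasi-likelihood fit (glmQLFit, robust, glmQLFTest) on group alone gave fold changes. Benjamini-Hochberg adjustment covered the 20541 genes, with calls under 0.05. Each standard error is the size of the log2 fold change over the square root of F, and 95% intervals follow from it. Per-kb levels divide CPM by the exon length in the count files. Depth floors and count limits cover counting error only. The alternatives used other size factors, library totals, DESeq2 1.42.0, limma-voom with quality weights (limma 3.58.1), other filters on low counts, removal of mitochondrial and hepatocyte genes, a replicate block, and each library left out. The scripts were tested on simulated data. Every pair of libraries differed by more than sampling noise.

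The members, lists and tests were chosen with earlier results of these data known. Named were all 10 members, Msr1 and, from each of the 5 pathway lists, the 3 genes with the smallest p and the most abundant one by mean CPM. A list member that the rule named is not reported here. Chosen after their values were seen were the other family members, the beta subunits, Adgrb1, Havcr1, Ly6g and Camp, the Elmo and Dock shares, and the pancreatic list.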

Additional observations from a re-analysis of the deposited data

How the results depend on the processing

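In each of 16 other settings 0 of the 10 genes changed by the setting's own test, and 147 of 160 log2 fold changes kept their sign. The number with an unadjusted p under 0.05, 1 by edgeR, was 2 by DESeq2, limma-voom and without a filter on low counts, and 0 to 2 with libraries left out. Over all genes 10 were called, against 65 by DESeq2, 99 by limma-voom, 32 without the filter, 5 with the replicate number as a block, and 3 to 101 with libraries left out, the last without wild type replicate 1 and SRA-/- replicate 2 together, a setting chosen after seeing the data. The replicate numbers pair nothing in the labels, and same-numbered libraries did not deviate together, with correlations across genes of -0.29, -0.14 and -0.13; in that block Mertk had a log2 fold change of 0.0093. Other signs turned where fold changes were near 0: by limma-voom for Mertk (0.033), Axl (-0.21), Mfge8 (-0.069), Dock1 (0.056) and Lrp1 (-0.055), and for Calr with DESeq2 size factors (0.00077), by DESeq2 (0.00074) and without mitochondrial and hepatocyte genes (0.0032). With libraries left out, log2 fold changes ran from -0.30 to 0.26 for Mertk, -0.48 to 0.27 for Axl, -0.14 to 0.24 for Mfge8, -0.13 to 0.14 for Dock1, -0.16 to 0.18 for Lrp1, -0.32 to 0.12 for Pros1, -0.22 to 0.16 for Calr and -0.0013 to 0.41 for Abca1. Share differences ran from -4.59 to 1.30 percentage points for Mertk, -1.26 to 4.66 for Axl and -4.66 to 7.40 for Itgb5. The cause of these moves was not tested. Depth limits the members with few counts, Tyro3 at 27 to 58 counts per library and Cd300lb at 29 to 286.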
